A study of Arabidopsis thaliana with 12 samples.

Results

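The alpha-expansins of Arabidopsis thaliana were followed across 6 groups of seedlings on Affymetrix arrays made to study the floral regulator LEAFY. A gene was included when a probe set, the group of short probes that reads 1 transcript, was annotated to a single gene whose symbol is EXPA and a number. This rule found 10 genes, each read by 1 probe set. The platform's annotation gave 13333 genes a probe set of their own, and 22746 probe sets were tested. That annotation listed 14016 of the 22810 probe sets, controls included. A gene under no named probe set may therefore be read by an unlisted one. They were EXPA4 (AT2G39700, 267590_at), EXPA7 (AT1G12560, 259525_at), EXPA8 (AT2G40610, 255822_at), EXPA9 (AT5G02260, 250992_at), EXPA15 (AT2G03090, 266770_at), EXPA16 (AT3G55500, 251791_at), EXPA18 (AT1G62980, 261099_at), EXPA20 (AT4G38210, 253008_at), EXPA21 (AT5G39260, 249500_at) and EXPA24 (AT5G39310, 249503_at). RefSeq's gene table for the assembly TAIR10.1 has 24 genes with such a symbol. Of the others, 3 were read by 2 probe sets that list several genes, and 11 were under no probe set named here.

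Expansins are proteins of the plant cell wall that loosen the contacts between cellulose microfibrils and matrix polysaccharides without cutting the polymers, which lets a cell under turgor enlarge. The alpha family is the largest, and its members differ mainly in where and when they are expressed. Beta-expansins and the expansin-like A and B proteins complete the superfamily. EXPA7 and EXPA18 are known for expression in root hair cells, where they act during hair growth.

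All samples were total RNA of 9-day-old seedlings, and each group had 2 arrays, 1 from lot 1 and 1 from lot 2. In 4 groups the seedlings carried LEAFY-GR, LEAFY joined to the steroid-responsive domain of a glucocorticoid receptor, and were collected at 8 h of mock treatment, dexamethasone, cycloheximide, or both compounds together. Dexamethasone activates the fusion and cycloheximide blocks protein synthesis, so the groups with cycloheximide ask which responses do not need new protein. The other groups were untreated Landsberg erecta seedlings, an accession with a mutation in ERECTA, and untreated 35S::LFY seedlings, in which a constitutive viral promoter drives LFY. The promoter of LEAFY-GR, the accession behind both transgenes, and whether a line was a single clone are not given in the sources used here. No seedlings lacking LEAFY-GR were treated with dexamethasone in the samples analysed here, so an effect of the compound itself cannot be told apart from that of LEAFY. Separately raised plants for the 2 arrays within a group are not mentioned in the labels. The spread behind each p-value is that between arrays of the same group, pooled over all 6 groups, and may therefore be technical.

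Median signal per array was 49.8 to 69.4, and the correlation of log2 signals between the arrays of a group was 0.959 to 0.979. As markers of green tissue, all 8 measured photosynthesis genes had signals of at least 103.4 in every sample (the lowest value, for LHCB4.3). Without detection calls, such a level alone does not establish that the tissue was present. None of the 18 root hair marker genes listed for this work was under a named probe set, so root material could not be checked that way. LFY itself was under no named probe set. Signals are linear intensities without detection calls, and the signal of 1 probe set cannot be compared with that of another. Changes are given on the scale of log2(signal + 10) with standard errors from a limma fit over all 12 arrays. A gene is said to have risen or fallen when its p-value, adjusted over all probe sets, was under 0.05.

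Across the 6 groups, 4 of the 10 alpha-expansins differed by limma's F-test, namely EXPA4, EXPA8, EXPA15 and EXPA18 (adjusted p = 7.32e-06, 2.45e-08, 8.53e-05 and 0.00141), whereas 50.1% of all probe sets did. EXPA8 had the widest range, with 5.42 log2 units between the lowest and the highest group mean. That range was 2.25 for EXPA4, 1.69 for EXPA18 and 1.49 for EXPA15, and it was between 0.26 and 1.09 for the other 6. Mean signals over the arrays were at least 50 for 6 members (EXPA4, EXPA7, EXPA8, EXPA9, EXPA15 and EXPA18) and below 10 for EXPA21 and EXPA24. Between lot 1 and lot 2 limma called no member. It also called 0% of all probe sets, so this result does not show that the lots had no part. At an unadjusted p under 0.05, 3 members (EXPA9, EXPA18 and EXPA20) were higher in lot 2, against 19.9% of probe sets in either direction.

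**Figure D1:**
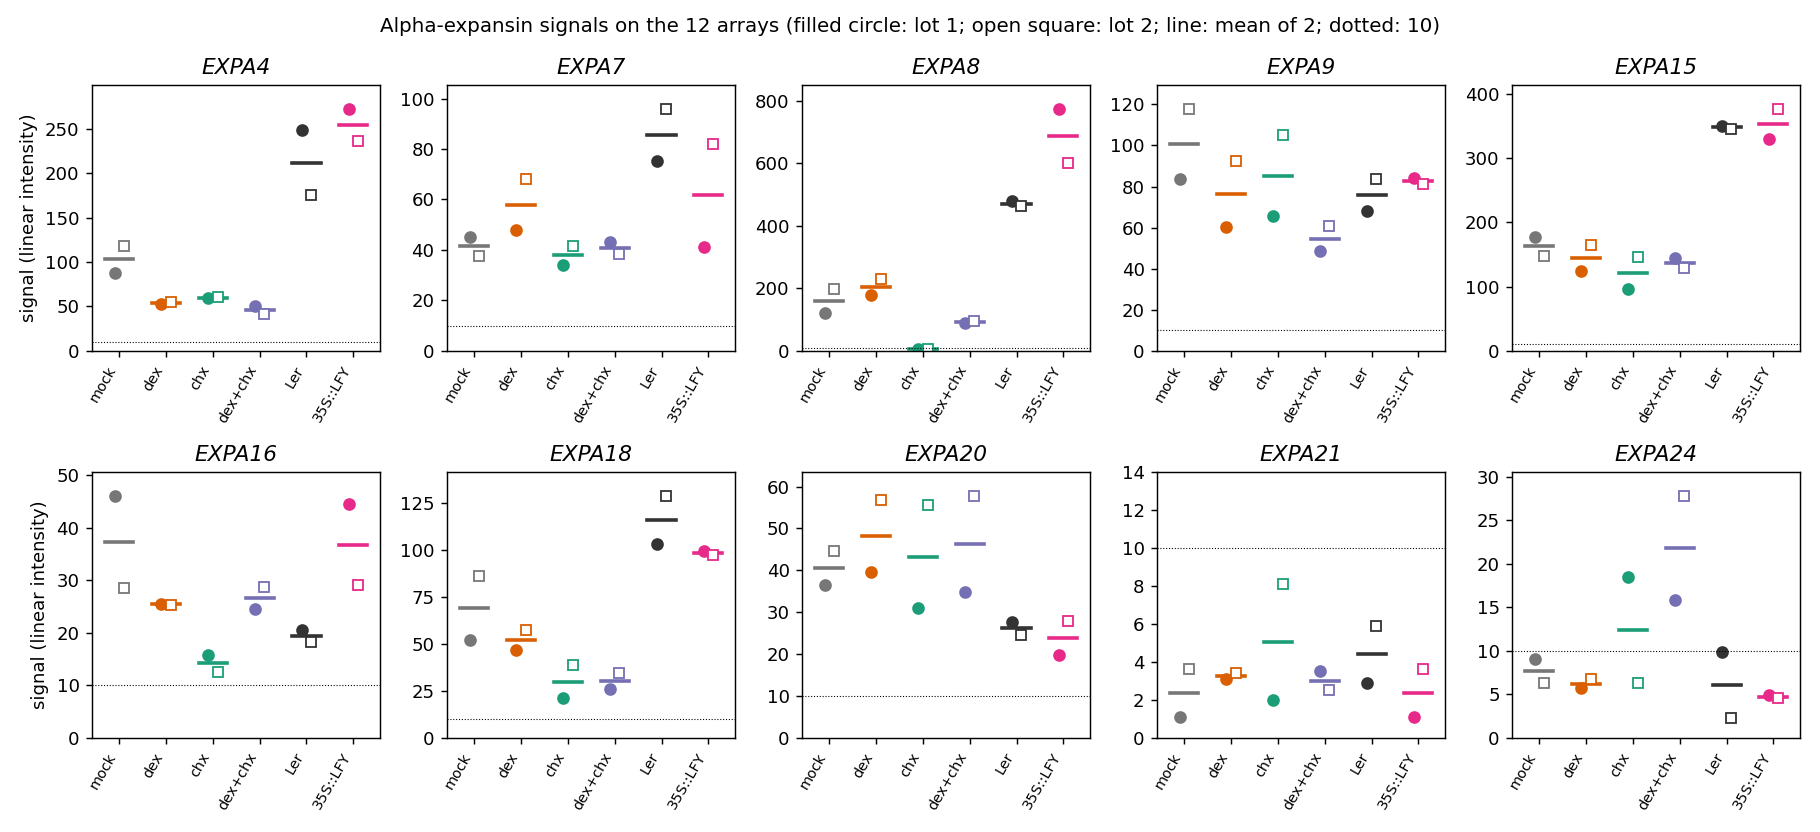
Signals of the 10 alpha-expansins on the 12 arrays (linear intensity; each panel has its own axis from 0), with filled circles for lot 1, open squares for lot 2, lines for the mean of 2 arrays and a dotted line at 10, the pseudocount. EXPA8 lies at 5.3 and 7.1 with cycloheximide and at 89.3 and 96.5 when dexamethasone is added, while EXPA4, EXPA8, EXPA15 and EXPA18 are highest in the 2 untreated groups.

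EXPA8 had the largest changes of the family for cycloheximide against mock and for dexamethasone in the presence of cycloheximide. For dexamethasone alone and for 35S::LFY, other members had larger values. Its signals were 122.0 and 196.8 in mock-treated LEAFY-GR seedlings and 177.3 and 228.6 with dexamethasone. With cycloheximide they were 5.3 and 7.1, and with both compounds 89.3 and 96.5. Landsberg erecta read 480.3 and 462.7 and 35S::LFY 773.5 and 601.5. In order of mean signal the groups were thus cycloheximide (6.2 ± 1.3, SD, n = 2), both compounds (92.9 ± 5.1), mock (159.4 ± 52.9), dexamethasone (203.0 ± 36.3), Landsberg erecta (471.5 ± 12.5) and 35S::LFY (687.5 ± 121.6). Mock and dexamethasone overlapped, and the other neighbouring groups in this order did not.

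Dexamethasone in the presence of cycloheximide raised EXPA8 by 2.67 ± 0.22 log2 (adjusted p = 0.000408). The mean signals, without the pseudocount, differed 15.0-fold, a ratio that rests on the low cycloheximide signals of 5.3 and 7.1. The log2 rise was 2.70 in lot 1 and 2.64 in lot 2. No other member was called in this comparison, so 1 of 10 members rose where 0.136% of all probe sets did. The median change of the family was 0.09, beside -0.01 for all probe sets, and 7 of the 10 values were above 0. Next to EXPA8 came EXPA16, with signals of 24.6 and 28.7 against 15.8 and 12.6 with cycloheximide alone. The change of EXPA16 was 0.60 ± 0.30 and did not pass (adjusted p = 0.864). EXPA9 had the most negative value, -0.53 ± 0.28 (adjusted p = 0.89).

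Because the cycloheximide signals of EXPA8 lie below the pseudocount, the size of its rise depends on that constant, from 3.72 with a pseudocount of 1 to 1.35 with 50. It was called under all 19 alternative fits, with adjusted p from 4.88e-05 to 0.0159. The 3′ to 5′ signal ratio for control transcripts, a measure of RNA integrity, also differed between the arrays compared. For actin it was 2.11 with both compounds against 1.78 with cycloheximide in lot 1, and 1.40 against 1.35 in lot 2. For GAPDH it was 1.12 against 1.03 and 1.01 against 1.04. Its part in the rise was not tested.

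Without cycloheximide, dexamethasone changed no alpha-expansin by limma, where 0.475% of probe sets were called. EXPA8 differed by 0.36 ± 0.22, with a 95% interval from -0.13 to 0.84 (adjusted p = 0.793). A single member, EXPA4, had an unadjusted p under 0.05, as did 7.61% of all probe sets. EXPA4 read 87.7 and 118.4 in mock and 52.4 and 55.1 with dexamethasone. The log2 change of EXPA4 was -0.81 ± 0.22 and its adjusted p 0.22. The root hair gene EXPA7 read 47.9 and 68.0 against 45.2 and 37.6, a difference of 0.39 ± 0.31 that did not pass (adjusted p = 0.841). The other 7 members had changes between -0.39 and 0.19.

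The dexamethasone responses of EXPA8 with and without cycloheximide differed by 2.31 ± 0.31 log2, by 2.19 in lot 1 and 2.43 in lot 2 (adjusted p = 0.0433). EXPA8 was the 1 member called for this difference, and 0.0264% of all probe sets were called in its direction. The call was marginal: with the lot as a replicate block the adjusted p was 0.0594 for the same difference of 2.31, and 11 of the 12 fits that left out 1 array lost it (adjusted p from 0.0938 to 0.195, differences from 1.99 to 2.49). A pseudocount of 50 reduced the difference to 1.06 (adjusted p = 0.45).

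In 35S::LFY seedlings no alpha-expansin differed from Landsberg erecta by limma, and 0.295% of probe sets did. EXPA8 and EXPA16 had an unadjusted p under 0.05, a level that 5.98% of probe sets reached. EXPA8 read 773.5 and 601.5 in 35S::LFY and 480.3 and 462.7 in Landsberg erecta. Its log2 difference was 0.52 ± 0.22, with a 95% interval from 0.04 to 1.01 (adjusted p = 0.772). EXPA16 read 44.5 and 29.1 in 35S::LFY and 20.6 and 18.3 in Landsberg erecta, a difference of 0.65 ± 0.30 (adjusted p = 0.832). EXPA15, at 329.9 and 375.9 against 350.4 and 344.6, had the smallest difference, 0.02 ± 0.20, with an interval from -0.42 to 0.46. For EXPA7 the 35S::LFY arrays were far apart, at 41.2 and 82.0, and its difference was -0.47 ± 0.31 (adjusted p = 1).

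**Figure D2:**
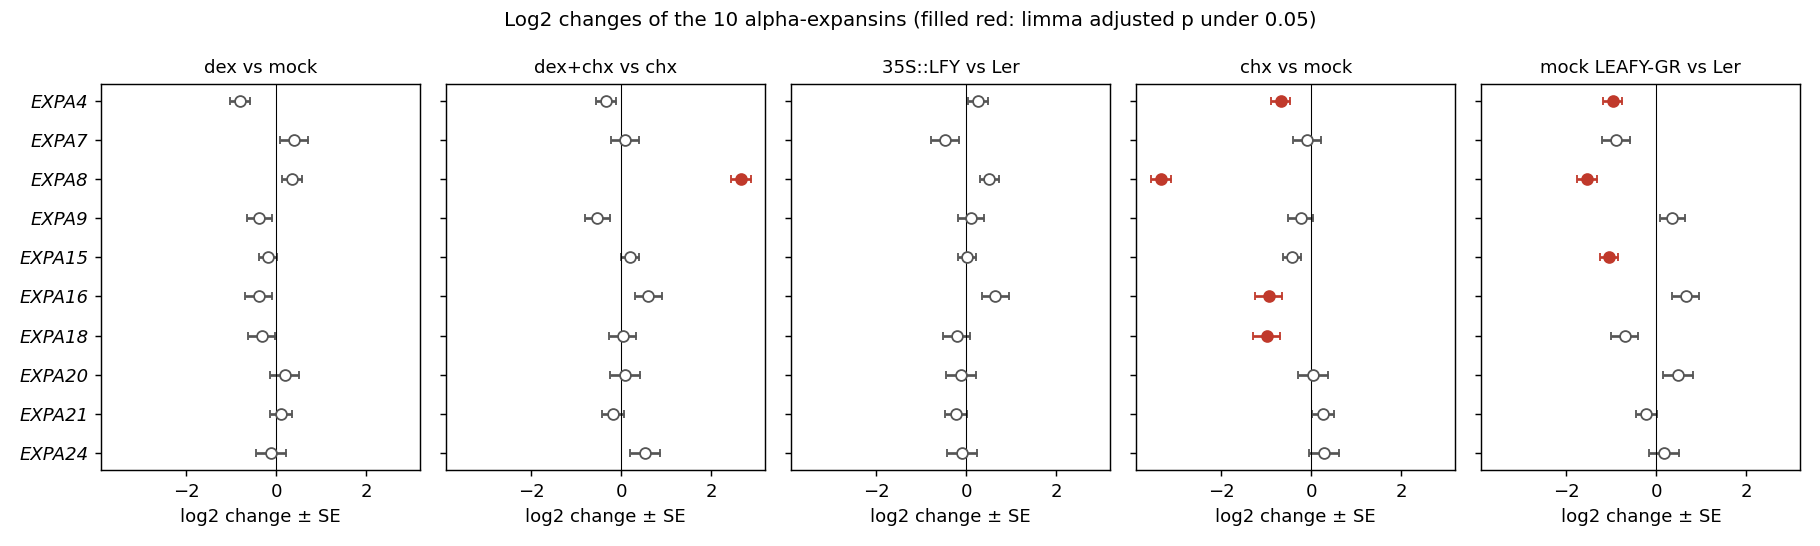
Log2 change and standard error of each alpha-expansin in 5 comparisons (dex, dexamethasone; chx, cycloheximide; Ler, Landsberg erecta; points filled red where the limma adjusted p was under 0.05, open grey otherwise; 2 arrays a group). EXPA8 stands alone to the right for dexamethasone with cycloheximide (2.67) and far to the left for cycloheximide against mock (-3.35), and no member is filled for dexamethasone alone or for 35S::LFY.

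Cycloheximide alone lowered 4 of the 10 members against mock, and 25.6% of all probe sets fell. EXPA8 fell by 3.35 ± 0.22 log2 (adjusted p = 2.74e-07). Its mean signal, without the pseudocount, was 25.7-fold lower, a ratio that rests on the same low cycloheximide signals. The log2 change of EXPA8 was -1.87 with a pseudocount of 50 and -4.45 with 1. EXPA18, which acts in root hairs, read 20.9 and 38.7 with cycloheximide and 51.8 and 85.9 in mock, and fell by 0.99 ± 0.30 (adjusted p = 0.019). EXPA16 went from 46.1 and 28.5 to 15.8 and 12.6, a fall by 0.94 ± 0.30 (adjusted p = 0.0221). EXPA4 went from 87.7 and 118.4 to 59.2 and 60.8, a fall by 0.68 ± 0.22 (adjusted p = 0.025). In these bulk samples, less RNA per cell and fewer cells of the type that holds it cannot be told apart.

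EXPA7, the other root hair gene, read 34.2 and 41.6 with cycloheximide and 43.2 and 38.3 with both compounds. Its change with cycloheximide did not pass (-0.10 ± 0.31, 95% interval -0.78 to 0.58). Neither did EXPA15, with 96.3 and 146.0 against 177.5 and 147.4 in mock (-0.42 ± 0.20, adjusted p = 0.123). EXPA9, EXPA20, EXPA21 and EXPA24 had values from -0.23 to 0.29. The median of the 10 was -0.32, beside -0.03 for all probe sets. Among the falls, that of EXPA8 passed in each of the 12 fits that left out 1 array. EXPA4 was lost without cycloheximide replicate 1 (adjusted p = 0.0748), cycloheximide replicate 2 (0.0665) or mock replicate 2 (0.192), and with scaling to equal medians (0.07) or quantile normalisation (0.065). EXPA16 was lost without mock replicate 1 (0.178) or cycloheximide replicate 2 (0.0905), and EXPA18 without cycloheximide replicate 1 (0.134) or mock replicate 2 (0.177).

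When LEAFY-GR was activated, cycloheximide lowered EXPA8 by 1.04 ± 0.22, from 177.3 and 228.6 to 89.3 and 96.5 (adjusted p = 0.00247). This was 1 of 10 members, and 26.2% of all probe sets fell in that comparison, whose median over all probe sets was -0.17. EXPA18, at 25.9 and 34.2 against 46.8 and 57.2, changed by -0.63 ± 0.30 and did not pass (adjusted p = 0.12), but with the lot as a replicate block it did (0.042). EXPA24 was the 1 member that rose, where 14.4% of probe sets did. It went from 5.7 and 6.7 to 15.8 and 27.8, a log2 change of 0.95 ± 0.33 (adjusted p = 0.0367). The lower signals of EXPA24 were under the pseudocount, and the call was lost with a pseudocount of 1 (0.0895), without dexamethasone replicate 1 (0.127) or 2 (0.0997), without replicate 2 of both compounds (0.218) and without 35S::LFY replicate 1 (0.0516) or 2 (0.0519).

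Set against mock rather than against dexamethasone, a comparison added after the values were seen, seedlings given both compounds had lower EXPA4, EXPA8, EXPA9 and EXPA18, 4 of 10 members beside 25.4% of all probe sets. EXPA8 was lower by a log2 change of -0.68 ± 0.22 (adjusted p = 0.0264), so its level with both compounds was above that with cycloheximide and below that of mock. The EXPA8 call was lost without replicate 1 (0.108) or 2 (0.0674) of both compounds, without mock replicate 2 (0.262), and with scaling to equal medians (0.0724) or quantile normalisation (0.0964). EXPA4 changed by -1.01 ± 0.22 (adjusted p = 0.00251) and passed in each of the 19 alternative fits. EXPA18 changed by -0.95 ± 0.30 (0.0235) and was lost without replicate 1 of both compounds (0.123) or mock replicate 2 (0.207). EXPA9, at 48.6 and 60.7 against 83.8 and 117.7, changed by -0.77 ± 0.28 (0.0441). It was lost in 7 of the 12 fits that left out 1 array, with adjusted p up to 0.266, and with quantile normalisation (0.0689).

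Several members also differed between the untreated Landsberg erecta and LEAFY-GR seedlings. Mock-treated LEAFY-GR seedlings had lower EXPA4, EXPA8 and EXPA15 than untreated Landsberg erecta, 3 of 10 members, and 3.82% of all probe sets were lower there. EXPA8 was lower by a log2 change of -1.54 ± 0.22, or 2.96-fold in mean signal (adjusted p = 0.00121). EXPA15, at 177.5 and 147.4 against 350.4 and 344.6, was 2.14-fold lower (-1.06 ± 0.20, adjusted p = 0.00725). EXPA4 was 2.06-fold lower, with 249.0 and 175.1 in Landsberg erecta (-0.97 ± 0.22, adjusted p = 0.0186). The transgene, the mock treatment and any difference of accession cannot be told apart in this comparison.

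Both root hair genes also lay lower on the mock arrays of LEAFY-GR than on those of Landsberg erecta, without passing. EXPA7 read 75.1 and 95.8 in Landsberg erecta, and the change was -0.89 ± 0.31 (adjusted p = 0.12). EXPA18 read 103.1 and 128.6, with a change of -0.70 ± 0.30 (0.21). Changes above 0 were measured for 4 of the 10 members, EXPA9, EXPA16, EXPA20 and EXPA24, also without passing. EXPA16, for example, differed by 0.66 ± 0.30 (0.235), and EXPA20, at 36.5 and 44.6 against 27.6 and 24.6, by 0.48 ± 0.33 (0.49).

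The 3′ to 5′ ratios were lower on both mock arrays of LEAFY-GR than on those of Landsberg erecta, at 1.12 and 0.97 against 1.27 and 1.30 for GAPDH, 1.75 and 1.63 against 1.98 and 2.25 for actin, and 1.51 and 1.43 against 1.73 and 1.98 for ubiquitin, and their part in the differences was not tested. EXPA8 passed in every fit that left out 1 array. EXPA4 was lost without mock replicate 1 (adjusted p = 0.14) or Landsberg erecta replicate 1 (0.19) and with scaling to equal medians (0.11), and EXPA15 without mock replicate 2 (0.0624) or Landsberg erecta replicate 1 (0.0611) or 2 (0.0609). Dexamethasone-treated LEAFY-GR seedlings, compared with Landsberg erecta after the values were seen, likewise had lower EXPA4 (-1.78 ± 0.22), EXPA8 (-1.19 ± 0.22) and EXPA15 (-1.23 ± 0.20), with adjusted p of 0.000326, 0.00495 and 0.00228. That was 3 of 10 members beside 5.32% of all probe sets, and all 3 passed in each alternative fit. EXPA18 (-1.02 ± 0.30) did not pass at an adjusted p of 0.0537 and passed in 7 of the 19 alternative fits, among them that with the lot as a replicate block (0.0145). The comparisons with mock share the mock arrays, and those with Landsberg erecta share its arrays, so they are not independent of each other.

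EXPA21 and EXPA24 belong to a run of alpha-expansin genes with consecutive locus codes, from AT5G39260 to AT5G39310. EXPA21 read between 1.1 and 8.1 on the 12 arrays, below the pseudocount on all of them. EXPA24 was below it on 9 arrays and reached 27.8 at most. The other genes of the run, EXPA22, EXPA23, EXPA25 and a gene given as EXP26, were read by the 2 probe sets with several genes, with medians of 4.65 and 4.15 and highest signals of 12 and 14.7. These genes were thus dim in all 6 groups, and with no detection calls it is not known whether they were measured above background. EXPA20, which lies elsewhere, read 19.7 to 57.8 and did not differ by the F-test (adjusted p = 0.24).

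As a description over 12 arrays that share groups and lots, several members varied together. The log2 signals of EXPA4 and EXPA15 correlated at r = 0.91, those of EXPA18 at 0.87 with both EXPA4 and EXPA15, and those of EXPA8 at 0.84 with EXPA18 and 0.80 with EXPA15. The root hair genes EXPA7 and EXPA18 correlated at 0.68. EXPA20 went the other way from EXPA4 (r = -0.77). Each of EXPA4, EXPA15 and EXPA18 is higher in the 2 untreated groups than in the 4 LEAFY-GR groups, so for these genes the arrays fall into 2 blocks.

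The genes most like EXPA8 were sought among 1290 probe sets with a symbol and a mean signal of at least 20. The 5 highest Pearson correlations over 12 arrays were those of MAP1D, a methionine aminopeptidase (r = 0.961), HIS1-3, a linker histone known as drought-inducible (0.958), rpoC2, a plastid-encoded subunit of the plastid RNA polymerase (0.953), VHA-A3, a subunit of the vacuolar proton pump (0.95), and TO1, a thioredoxin (0.946). Over the 6 group means r was 0.965 to 0.99. HIS1-3, for instance, read 10.8 and 4.7 with cycloheximide, 23.9 and 35.8 with both compounds and 125.8 and 112.5 in 35S::LFY. The genes most like EXPA7 were ARV2 (r = 0.898), CEF (0.871), LPR1, a multicopper oxidase of the root response to low phosphate (0.864), RECQ4A, a DNA helicase (0.854), and SOL1 (0.847).

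**Figure D3:**
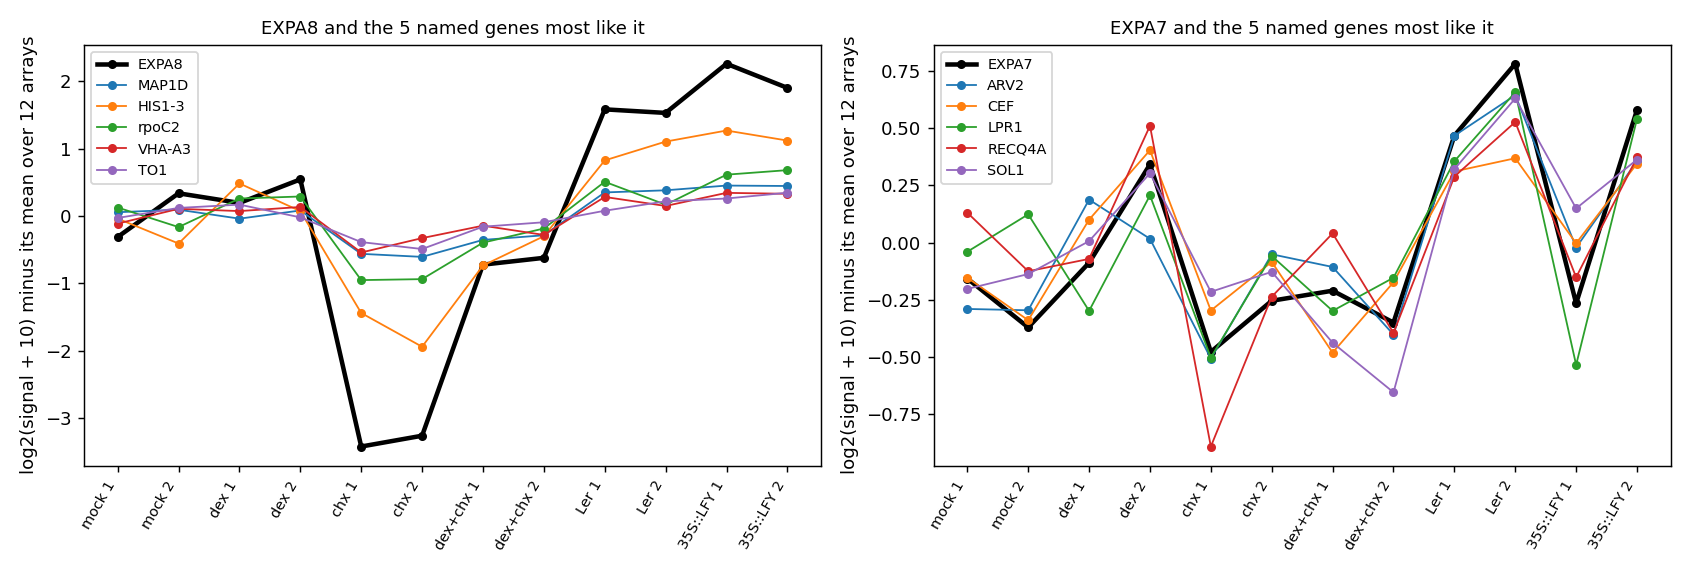
Log2(signal + 10) on each of the 12 arrays minus its mean over the arrays, for EXPA8 (left, black) and EXPA7 (right, black) with the 5 genes most correlated with each; lines join the arrays in group order. EXPA8 and its 5 genes are all lowest on the cycloheximide arrays (chx). EXPA7 has its highest group mean in Landsberg erecta (Ler), at 75.1 and 95.8, and overlaps there with 35S::LFY, at 41.2 and 82.0.

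Other cell wall genes were counted from lists chosen by gene family. The counts with cycloheximide alone are to be read against the 17.2% of all probe sets that rose and the 25.6% that fell. Of 8 other expansins, 2 rose and 2 fell. The expansin-like genes EXLA3 and EXLA2 rose, by 3.20 ± 0.34 (14.8 and 21.2 to 265.7 and 226.9, adjusted p = 1.14e-05) and 1.72 ± 0.30 (adjusted p = 0.000582). EXLB1 fell by 1.52 ± 0.36 and the beta-expansin EXPB3 by 0.89 ± 0.24 (adjusted p = 0.00436 and 0.01). The median of this list was -0.27, that of the alpha-expansins -0.32 and that of all probe sets -0.03.

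Among 9 XTH genes, which encode enzymes that cut and rejoin xyloglucan, 4 rose and 1 fell with cycloheximide, with a list median of 0.83. XTH18 rose by 5.28 ± 0.20 log2, XTH19 by 3.43 ± 0.24 and XTH33 by 2.54 ± 0.41, and XTH32 fell by 1.73 ± 0.28 (adjusted p at most 0.000337). Of 7 cellulose synthase relatives 3 rose (CSLC04 by 1.43, CSLC12 by 1.20 and CSLD2 by 0.46) and 1 fell (CSLC5, by 1.47). PMEPCRF, a pectin methylesterase gene, fell by 1.60 ± 0.16, the 1 of 4 pectin genes that passed. Of 8 photosynthesis genes 7 fell, with a median of -1.54, among them LHCB4.2 (by 2.36), PSAE-1 (by 2.29), PSAN (by 1.90) and PSBY (by 1.62). Whether this fall in genes of green tissue has a part in the alpha-expansin values was not tested.

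With dexamethasone in the presence of cycloheximide, 0 of 8 other expansins, 0 of 9 XTH genes and 0 of 8 photosynthesis genes passed with limma, while 1, 0 and 1 of them had an unadjusted p under 0.05, as did 6.16% of all probe sets. In that comparison CSLD2, a cellulose synthase-like gene, changed by -1.02 ± 0.17 (adjusted p = 0.0385) and PMEPCRF by -1.06 ± 0.16 (0.0287), both downwards, as were 0.0572% of all probe sets. The smallest p-values of the lists without a call were those of EXLA2 (-0.68) and EXLA1 (0.41), XTH21 (-0.51) and XTH33 (-0.75), and PSAN (0.52) and PSBW (0.38). List medians were 0.04 for the other expansins, -0.16 for XTH and 0.27 for photosynthesis, beside 0.09 for the alpha-expansins.

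Dexamethasone without cycloheximide changed 1 wall gene of these lists, XTH19, by -1.90 ± 0.24 (adjusted p = 0.0044), where 0.475% of all probe sets were called. XTH19 read 2.1 and 9.7 with dexamethasone, under the pseudocount, against 46.4 and 48.6 in mock, so the size of its change depends on that constant. None of the other expansins passed, with EXLA2 (-0.89) and EXLA3 (0.65) having the smallest p-values, and the list median was -0.31 beside -0.14 for the alpha-expansins and 0.07 for all probe sets. CSLC04 (0.43), CSLA01 (0.41), PMEPCRF (-0.74), GAUT15 (0.52), LHCB4.3 (-0.49) and PSBW (0.16) had the smallest p-values of their lists and did not pass. In 35S::LFY no gene of any list passed with limma, where 0.295% of all probe sets did. The unadjusted limma p was under 0.05 for 1 of the 8 other expansins and 4 of the 9 XTH genes, beside 5.98% of all probe sets. It was so for 0 of 7 cellulose synthase relatives, 0 of 4 pectin genes and 0 of 8 photosynthesis genes. The smallest p-values there belonged to EXLA2 (-0.95) and EXPB3 (0.35), XTH21 (-1.14) and XTH16 (-0.61), CSLC04 (0.28) and CSLA03 (-0.29), PME61 (0.33) and GAUT15 (0.13), and LHCB4.3 (-0.51) and LHCB4.2 (0.26).

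**Figure D4:**
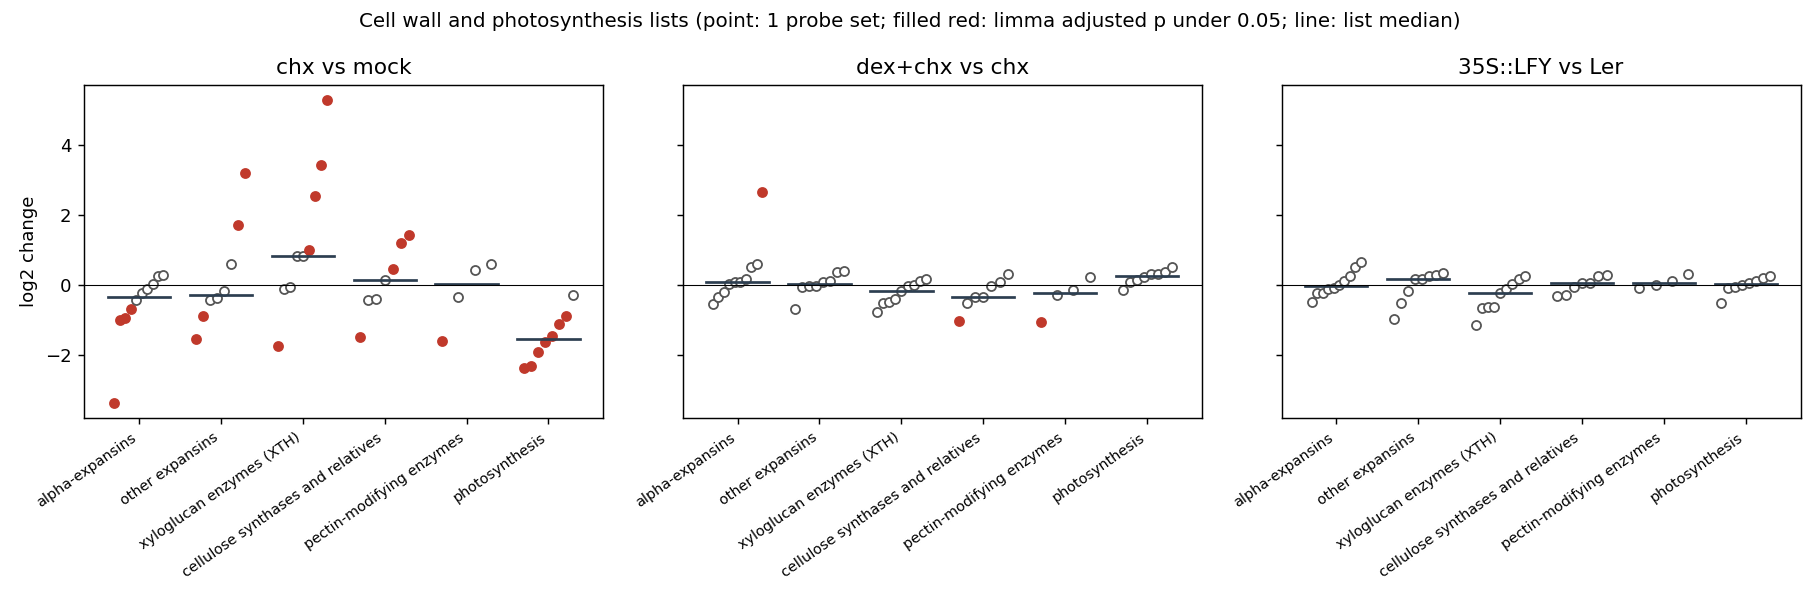
Log2 change of every measured gene of 6 lists for cycloheximide against mock, for dexamethasone with cycloheximide against cycloheximide, and for 35S::LFY against Landsberg erecta (1 point a probe set; filled red where the limma adjusted p was under 0.05; lines mark list medians). In the middle panel EXPA8 (2.67) is the highest point, and CSLD2 and PMEPCRF are the other filled points.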

How the data were processed

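The authors deposited 1 linear intensity per probe set and array, without background values, and the sources used here do not name the software. From the values, these intensities were already scaled: every array had a 2% trimmed mean of 150.01 or 150.02. No further normalisation was applied. The 64 control probe sets were left out. Genes were named through the platform's annotation and RefSeq's TAIR10.1 table, used for names and gene order only.

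A model with a mean for each of the 6 groups was fitted to log2(intensity + 10) on all 12 arrays and 22746 probe sets with limma 3.58.1 (R 4.3.3), with 6 residual degrees of freedom, empirical Bayes moderation with an intensity trend, and Benjamini-Hochberg adjustment over all probe sets. The steps were tested on simulated data. Figures used Python 3.11.15 and matplotlib 3.10.9.

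The members, lists, contrasts and alternatives were chosen with earlier results of these data known. The contrasts of both compounds against mock and of dexamethasone against Landsberg erecta, the F-test and the test of lots were added after the values were seen. Every member is given. Of the other lists, up to 4 called genes, or else the 2 with the smallest p-values, are named in 4 contrasts, and likeness is given for 5 genes. EXLA2, EXPB3 and XTH21 are described further after their values were seen.

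The labels give each array a lot, which pairs arrays across groups. Deviations from the group means correlated at 0.05 to 0.33 (median 0.14) over the 30 pairs of arrays of 1 lot. With 2 arrays a group, the deviations of a group are equal and opposite, so the pairs of lot 2 repeat those of lot 1. With 2 arrays a group, the precision is limited by their number.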

Additional observations from a re-analysis of the deposited data

Results flagged for a closer look

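The response of EXPA8 to dexamethasone differed with and without cycloheximide by 2.31 ± 0.31 log2 (limma, adjusted p = 0.0433). The response was 2.67 with cycloheximide and 0.36 without it, and the difference was 2.19 in lot 1 and 2.43 in lot 2. It was the 1 member of 10 for which the difference of the 2 responses passed, beside 0.0264% of all probe sets. The call was lost with the lot as a replicate block (adjusted p = 0.0594) and in 11 of the 12 fits that left out 1 array, and it was kept in 4 of 19 alternative fits in all. The cycloheximide arrays, at 5.3 and 7.1, are the only ones of EXPA8 below the pseudocount of 10, and both enter this difference. The next members were EXPA16, at 0.99 ± 0.42, and EXPA24, at 0.66 ± 0.46, neither of which passed (adjusted p = 0.967 and 0.972).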

How the results depend on the processing

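The call of EXPA8 in 4 comparisons (dexamethasone with cycloheximide, cycloheximide alone, cycloheximide with active LEAFY-GR, and mock against Landsberg erecta) was kept under all 19 alternative fits, and the absence of calls for dexamethasone alone and 35S::LFY was too. For dexamethasone with cycloheximide against cycloheximide, 1 member was called in each. With a 2-fold minimum, cycloheximide against mock had 1 call in place of 4 and cycloheximide with active LEAFY-GR 1 in place of 2, both EXPA8. The latter was also 1 with a pseudocount of 1 or without probe sets of mean intensity under 50, a filter that EXPA24 does not pass. The difference between the dexamethasone responses had 0 calls in place of 1 with a pseudocount of 50, scaling to equal medians, no intensity trend, or the lot as a replicate block. The replicate block also added EXPA18 to the calls of cycloheximide with active LEAFY-GR (3 in place of 2) and of dexamethasone against Landsberg erecta (4 in place of 3), and changed no other call of a member. Leaving out 1 array gave 2 to 4 calls for cycloheximide, 1 to 2 for cycloheximide with active LEAFY-GR, 0 to 1 for the difference of responses and 1 to 3 for mock against Landsberg erecta, where 1 was reached without Landsberg erecta replicate 1. A group left with 1 array is assumed to vary like the others and has a larger standard error, which by itself can end a call. No called change of a member reversed its sign. Signals near or below 10 limit what can be said of EXPA21, EXPA24 and the cycloheximide level of EXPA8, and likewise of XTH19 and EXLA2 with dexamethasone and XTH21 in mock.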

Other observations

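EXLA2, an expansin-like gene, was lower in each LEAFY comparison, although no call was made by limma. It read 8.1 and 8.4 with dexamethasone against 25.3 and 22.3 in mock (-0.89 ± 0.30 log2, adjusted p = 0.419), 68.9 and 51.0 with both compounds against 108.1 and 95 with cycloheximide (-0.68 ± 0.30, adjusted p = 0.774), and 8.8 and 10.8 in 35S::LFY against 38.5 and 20.2 in Landsberg erecta (-0.95 ± 0.30, adjusted p = 0.457). The EXLA2 signals with dexamethasone and in 35S::LFY lay near or below the pseudocount of 10. EXPA8 had a positive value in the same 3 and passed only for both compounds against cycloheximide. The gene was chosen after its values were seen.

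EXPB3, a beta-expansin, was lower on the mock arrays of LEAFY-GR than on those of Landsberg erecta, as EXPA4, EXPA8 and EXPA15 were. It read 76.5 and 82.4 against 323.1 and 279.1 (-1.80 ± 0.24 log2, adjusted p = 0.000719), and 365.8 and 408.5 in 35S::LFY. XTH21 was lower as well, at 7.8 and 7.3 against 36.6 and 42.1 (-1.49 ± 0.28, adjusted p = 0.00675). These were the only calls in their lists, 1 of 8 other expansins and 1 of 9 XTH genes, beside 3.82% of all probe sets lower there. The list medians were -0.06 and -0.13, beside -0.09 for all probe sets. Both genes were chosen after their values were seen. Unlike EXPB3, XTH21 had a lower mean in 35S::LFY than in Landsberg erecta, with signals of 11.8 and 13, without passing there (adjusted p = 0.214).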
